A study of Mus musculus with 23 samples.

Results

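Open chromatin was compared between the villus and the crypt of the adult mouse duodenum, the first stretch of the small intestine. The comparison used 6 of the 23 ATAC-seq libraries of the series, 3 of adult villus epithelium and 3 of adult crypt epithelium, all from mice aged 90 days. The libraries were chosen by their titles alone. Peaks of the 6 libraries that shared at least 1 bp were merged into 98862 regions, out of 149024 regions when all 23 libraries were merged. The other groups were geriatric villus and geriatric crypt of the duodenum at 21 months, whole juvenile duodenum at 12 days, juvenile colon at 15 days, adult colon at 90 days and geriatric proximal colon at 21 months. With 3 libraries per group, or 2 for geriatric proximal colon, they were used to look at the same regions in further libraries. No treatment or engineered allele is named for any group, and strain and sex are not stated in the labels.

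In ATAC-seq, a transposase inserts sequencing adapters where DNA is not packed away, so that reads pile up over promoters and enhancers that are open. The crypt is the pit of the intestinal lining that holds stem cells, their dividing progeny and Paneth cells. Cells leave it upwards onto the villus, a projection into the gut lumen covered mostly by absorptive enterocytes, with goblet, enteroendocrine and tuft cells among them, and are shed at its tip. A comparison of both compartments therefore sets the one that holds dividing, undifferentiated cells against one covered mostly by differentiated cells. The colon, which has crypts but no villi, offers a further tissue to look at the same regions.

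Per the labels' protocols, epithelium was released from the duodenum with EDTA, and villi were those retained on a cell strainer while crypts passed through, after which trypsin gave single cells. The fractions are bulk preparations, so fewer cells of one type and less open chromatin per cell cannot be told apart. Marker genes could not be used to check the labels, because the peaks are in genome build mm9 and the gene tables at hand are of another build. Regions are therefore named by position. The series description calls the replicates biological and counts fewer mice than libraries, so villus and crypt of an age may come from the same animals. The labels do not say that a replicate number marks an animal, and all p-values rest on the spread among 3 libraries per group, part of which may be technical.

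Adult villus libraries kept 22.2, 24.5 and 29.2 M reads and had 51039, 49471 and 43092 peaks. Adult crypt libraries kept 14.4, 18.4 and 23.9 M reads and had 51732, 35222 and 57827 peaks. The numbers of peaks overlapped fully, with a mean difference of −393 (villus minus crypt) (two-sided exact permutation test, p = 0.9, n = 3 and 3, smallest possible p 0.1). With only peaks at a −log10 q of at least 5 the sign turned, to 3466 more in villus (exact permutation p = 0.7). Villus library 3 stood apart: its reads had been extended to 68 bp for peak calling, against 91 to 145 bp in the other 5 libraries, and its peaks covered 6.87 Mb against 8.89 to 17.8 Mb. Without villus library 3 the mean difference in peak number was 1995 (villus minus crypt). Counts without it are also given below for regions with a peak in 1 compartment only. They are given too for differences in regions with a peak in all 6 libraries.

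Most regions that were open in every library of one compartment were open in every library of the other. Of the 98862 regions, 17047 (17.2%) had a peak in all 6 libraries, which was 62.7% of the regions with a peak in all 3 villus libraries and 66.9% of those with a peak in all 3 crypt libraries. A peak in all 3 villus libraries and in no crypt library was found in 3087 regions, 3.12% of all regions, and these are called villus-only below. The reverse was found in 3281 regions, 3.32% of all, called crypt-only. A further 3066 and 3984 regions had a peak in all 3 villus libraries and in 1 or 2 crypt libraries, and 1728 and 3442 had one in all 3 crypt libraries and in 1 or 2 villus libraries. Regions seen in a single library were the most frequent, with 19330 in villus and 22026 in crypt. With every list reduced to its 35222 strongest peaks, 3024 regions were villus-only and 2950 crypt-only, of which 1625 and 1982 were so on both kinds of list. Presence of a peak has no test per region, because 3 against 3 libraries cannot give an exact p under 0.1. Without villus library 3 the counts were 7135 and 3451. The villus-only count was 4722 without crypt library 1, and the crypt-only count 6418 without crypt library 2, the library with the fewest peaks. Where peaks had to cover 50% of a region, 2006 regions were villus-only, and at a −log10 q of at least 5, 1984 regions were crypt-only.

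**Figure D1:**
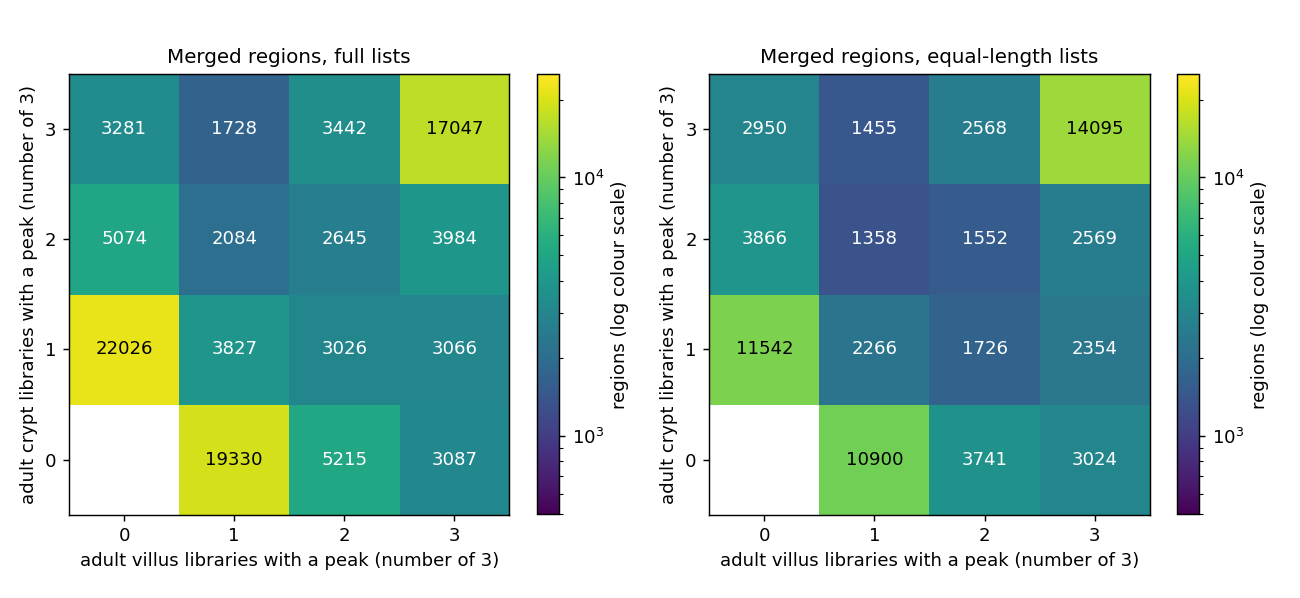
Number of merged regions by how many of the 3 adult villus libraries (x axis) and of the 3 adult crypt libraries (y axis) had a peak there, on full lists (left) and on lists cut to 35222 peaks (right), with a log colour scale. The corner of 3 and 3 holds 17047 regions on full lists, and the corners of 3 and 0 hold 3087 villus-only and 3281 crypt-only regions.

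Compartment-only regions had a lower pileup than shared ones. Their median width was 304 bp for villus-only and 265 bp for crypt-only, against 527 bp for regions with a peak in all 6 libraries, but the latter are merged from the peaks of more libraries, so the widths are not compared. Pileup, the number of extended reads stacked at the summit of a peak, was set relative to the median of the shared regions in the same library. On that scale the median villus-only region stood at 0.643 ± 0.0878 (SD over 3 villus libraries) and the median crypt-only region at 0.608 ± 0.0583 (SD over 3 crypt libraries). Regions that were called in every villus library and in 1 crypt library stood at 0.704 ± 0.0458 in villus, and those called in 2 crypt libraries at 0.770 ± 0.0426. In crypt the values were 0.640 ± 0.0351 and 0.703 ± 0.00975 for regions called in 1 and 2 villus libraries. The values of single libraries overlapped from one of these steps to the next, except in crypt between regions called in 1 and in 2 villus libraries. Presence of a peak defined these lists, so their levels are a description.

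Villus-only regions lay closer to shared regions and to each other than crypt-only regions did, given here as a description without a test because neighbouring regions are not independent. The median gap to the nearest region with a peak in all 6 libraries was 13.5 kb for villus-only and 40.2 kb for crypt-only regions. Within 1 kb of such a region lay 262 villus-only regions (8.49%) and 100 crypt-only regions (3.05%). The nearest other villus-only region was at a median of 91.7 kb and the nearest crypt-only region at 193 kb. For crypt-only regions the nearest of the same kind was at 146 kb and the nearest villus-only region at 267 kb. Within 10 kb of another region of the same kind lay 13.2% of villus-only and 8.81% of crypt-only regions, against 4.70% and 4.51% within 10 kb of one of the opposite kind. Both kinds were thus nearer to their own kind than to the other.

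The crypt-only regions with the highest pileup repeated their pattern in old animals. The region at chr1:196436609-196437082 had 2.71, 2.12 and 1.84 stacked reads per M kept reads in the 3 adult crypt libraries and no peak in adult villus. In the geriatric crypt libraries it had 2.78, 1.74 and 1.01, again with no peak in geriatric villus. The region at chr12:7643276-7643984 had 2.23, 2.179 and 1.55 in adult crypt and 2.30, 1.56 and 0.568 in geriatric crypt, and no peak in any villus library of either age. It was also called in every juvenile duodenum library (3 of 3) and in 7 of 8 colon libraries. The region at chr4:23563283-23564020 had 1.81, 2.40 and 1.05 in adult crypt and 2.09, 1.12 and 0.593 in geriatric crypt. No other library of the series, juvenile duodenum and colon included, had a peak there. Of the 6 crypt-only regions with the highest level, 5 had no peak in any geriatric villus library, and the sixth, at chr18:86864632-86864988, had one in 2 of 3.

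Most of the villus-only regions with the highest pileup lay on chromosome 8. The region at chr2:160717348-160717763 had 3.25, 2.49 and 0.889 stacked reads per M in adult villus and no peak in adult crypt. It had a peak in all 3 geriatric villus libraries, in 1 geriatric crypt library and in all 3 adult colon libraries. Of the other 5, 4 lay on chromosome 8 within 139 kb. The region at chr8:20008245-20008562 had 3.29, 2.94 and 0.957 in adult villus and the region at chr8:19881064-19881459 had 2.53, 2.62 and 1.06, and their starts are 127 kb apart. The other pair, at chr8:20019323-20019575 and chr8:19891924-19892291, also starts 127 kb apart, and each member lies 77 bp from a region with a peak in all 6 libraries. Fold enrichment, the ratio of pileup to the local background of the same library, was 3.18 to 5.86 in these 4 regions. It was 10.3 to 16.8 in 5 of the 6 crypt-only regions with the highest pileup. In the remaining crypt-only region, at chr3:92054190-92054652, it was 5.43 to 6.28. The last villus-only region, at chr1:90180869-90181163, had a fold enrichment of 2.92 to 3.24. It had a peak in 2 of 3 geriatric villus and no geriatric crypt libraries. Whether the 4 regions on chromosome 8 are copies of one sequence, to which reads could be assigned either way, was not tested. All 4 regions on chromosome 8 had a peak in all 3 geriatric villus libraries. Of the 6 villus-only regions, 4 had a peak in 1 geriatric crypt library. The regions at chr8:20019323-20019575 and chr1:90180869-90181163 kept a peak in 2 of 3 villus libraries at a −log10 q of at least 5 and at 50% cover, as did chr8:19891924-19892291 at 50% cover, so these 3 were no longer villus-only there. Of the 6 villus-only regions, 5 are absent from the authors' deposited villus list described at the end. The crypt-only region at chr3:92054190-92054652 is absent from the authors' deposited crypt list.

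In the 17047 regions with a peak in all 6 libraries, the question was whether one compartment was more open than the other. On pileup per M kept reads, the scaling chosen for the comparison, limma with Benjamini-Hochberg adjustment called no region in either direction, 0.0% of those tested, and 123 regions had an unadjusted p under 0.05. On that scaling the libraries themselves differed: the median shared region had 1.94, 1.35 and 0.513 stacked reads per M in the 3 villus libraries and 1.39, 1.14 and 0.963 in the 3 crypt libraries. Villus library 3 had the lowest value and villus library 1 the highest, so the spread within villus exceeded the difference between compartments. Without villus library 3 the same fit called 1522 regions higher in villus and 34 higher in crypt, with the median of all regions shifted to 0.40 (log2, villus minus crypt). The results that follow use another scaling, in which the log2 values of each library were centred on its median over the shared regions, so that a difference is relative to the typical shared region of the same library. A change common to nearly all regions of a compartment cannot be seen on this scale.

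With library medians centred, 1257 shared regions were higher in villus and 1673 higher in crypt (limma, adjusted p under 0.05), 7.37% and 9.81% of those tested. The groups did not overlap in 1230 and 1622 of them. Over all regions tested, they did not overlap in 14.4% in favour of villus and 19.5% in favour of crypt. Differences were mostly below 2-fold: the median was 1.83-fold for regions higher in villus and 1.67-fold for regions higher in crypt, and 396 (31.5%) and 266 (15.9%) reached 2-fold. The widest differences were 1.93 and −1.93 (log2). Of the regions higher in crypt, 929 of 1673 were in the top quartile of mean level over the 6 libraries, against 64 of 1257 higher in villus. That mean includes the libraries in which a region was higher. Regions higher in crypt were also wider, at a median of 614 bp against 519 bp. The authors' fold enrichment is computed from the same pileup, so its direction in these regions is a description and no support. In regions higher in crypt its median was 12.4, 11.2 and 11.9 in the crypt libraries and 9.26, 7.97 and 6.49 in the villus libraries. In regions higher in villus it was 10.4, 9.80 and 7.68 in villus and 6.76, 5.56 and 6.19 in crypt. Over all shared regions it was 9.16, 8.20 and 6.46 in villus and 8.72, 7.58 and 8.43 in crypt.

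The split between the compartments depended on the scaling. Villus-higher regions were 42.9% of all calls with medians centred and 54.8% after quantile normalization, which called 1248 regions higher in villus and 1030 higher in crypt. Fold enrichment in place of pileup called 36 and 87. Without villus library 2 the centred counts were 528 and 844, without crypt library 2 they were 892 and 956, and without crypt library 3 they were 888 and 1110. Without villus library 3 they were 1249 and 2191.

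**Figure D2:**
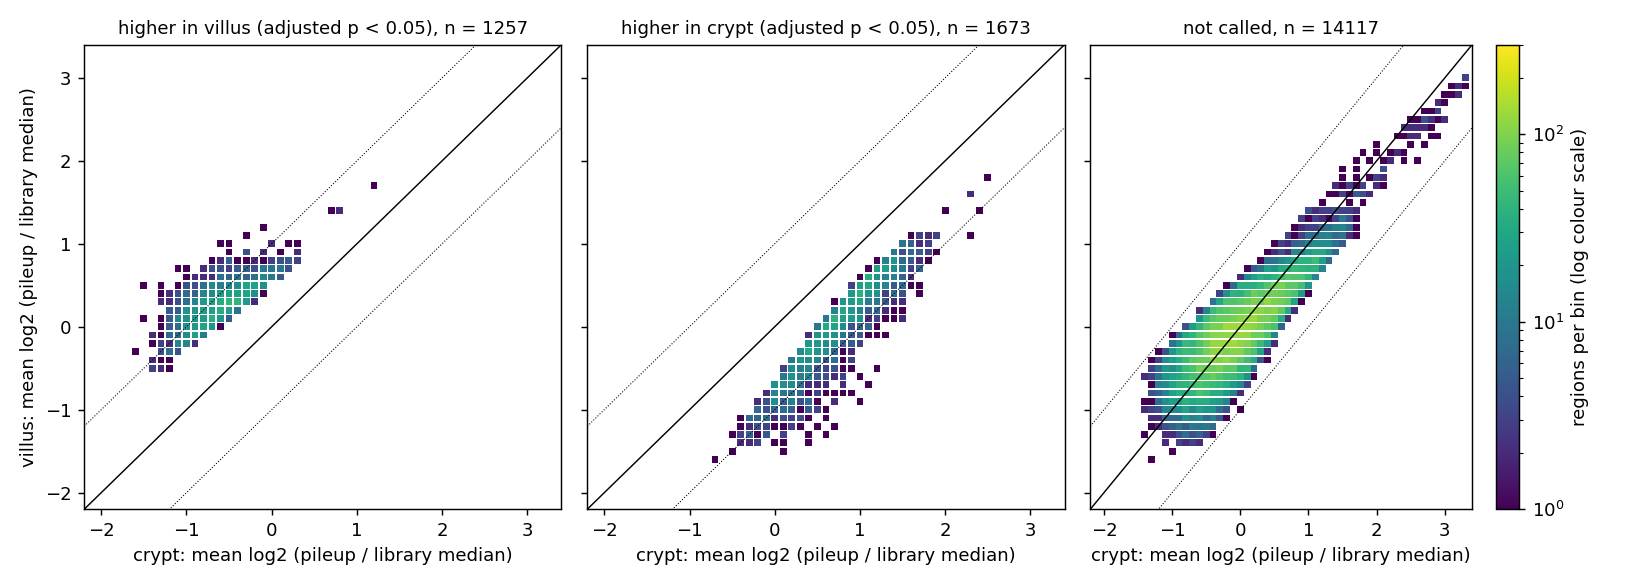
Mean log2 level, relative to the library median, in the 3 adult crypt libraries (x axis) and the 3 adult villus libraries (y axis) for 17047 shared regions in bins of 0.1 by 0.1, coloured by the number of regions on a log scale. The solid line marks equal levels and the dotted lines a 2-fold difference. The 1673 regions higher in crypt reach to higher levels than the 1257 regions higher in villus, and most of both kinds lie inside the dotted lines.

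The shared region with the largest difference in favour of villus was at chr18:38220829-38221338. Relative to the library median, it stood at 1.26, 1.70 and 1.20 in the villus libraries and at 0.350, 0.381 and 0.348 in the crypt libraries. Every villus library was above every crypt library, by 3.81-fold on average (log2 1.93 ± 0.25 SE, limma adjusted p = 0.000229). In geriatric mice it had a peak in all 3 villus and no crypt libraries. The region at chr2:104704480-104705025 stood at 1.53, 1.55 and 1.73 in villus and at 0.650, 0.476 and 0.304 in crypt, a 3.52-fold difference (log2 1.82 ± 0.25 SE, limma adjusted p = 0.000244). The region at chr2:15024709-15025171 stood at 1.72, 1.73 and 1.53 in villus and at 0.750, 0.381 and 0.435 in crypt, with no overlap. It had a peak in all 3 geriatric villus and all 3 juvenile duodenum libraries, but in no geriatric crypt or colon library. The other 3 of the 6 largest, at chr14:118547822-118548156, chr18:13027544-13028132 and chr10:98327052-98327539, differed by 3.15-fold to 3.49-fold. All 6 had a peak in every geriatric villus library, and none in more than 1 geriatric crypt library.

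The largest difference in favour of crypt was at chr7:59425367-59425968. It stood at 1.45, 1.71 and 1.70 in the crypt libraries and at 0.326, 0.394 and 0.600 in the villus libraries, 3.80-fold higher in crypt (log2 −1.93 ± 0.25 SE, villus minus crypt, limma adjusted p = 0.000229). In geriatric mice it had a peak in all 3 crypt libraries and in 1 villus library. The region at chr16:5352114-5352681 had the smallest adjusted p of the 12 named here. It stood at 2.05, 1.81 and 2.00 in crypt and at 0.512, 0.606 and 0.533 in villus, which is 3.55-fold (log2 −1.83 ± 0.19 SE, limma adjusted p = 2.4e-05). The region at chr1:108483317-108483872 stood at 1.45, 1.43 and 1.52 in crypt and at 0.395, 0.394 and 0.467 in villus. It had a peak in all 8 colon libraries. The region at chr8:4165864-4166599 was the strongest of the crypt regions, at 2.05, 2.38 and 2.00 in crypt and 0.442, 0.576 and 1.00 in villus, and it had a peak in all 8 colon libraries too. The other 2, at chr10:110037254-110037908 and chr18:57857897-57858424, differed by 3.56-fold and 3.31-fold. All 6 had a peak in every geriatric crypt library, and 5 of them also in at least 2 geriatric villus libraries. With medians centred, all 12 regions passed the test without any one of the 6 libraries. On fold enrichment 10 passed, and those at chr2:15024709-15025171 (limma adjusted p = 0.0575) and chr10:98327052-98327539 (limma adjusted p = 0.0705) did not. On pileup per M kept reads none passed (adjusted p = 1.0 for each).

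**Figure D3:**
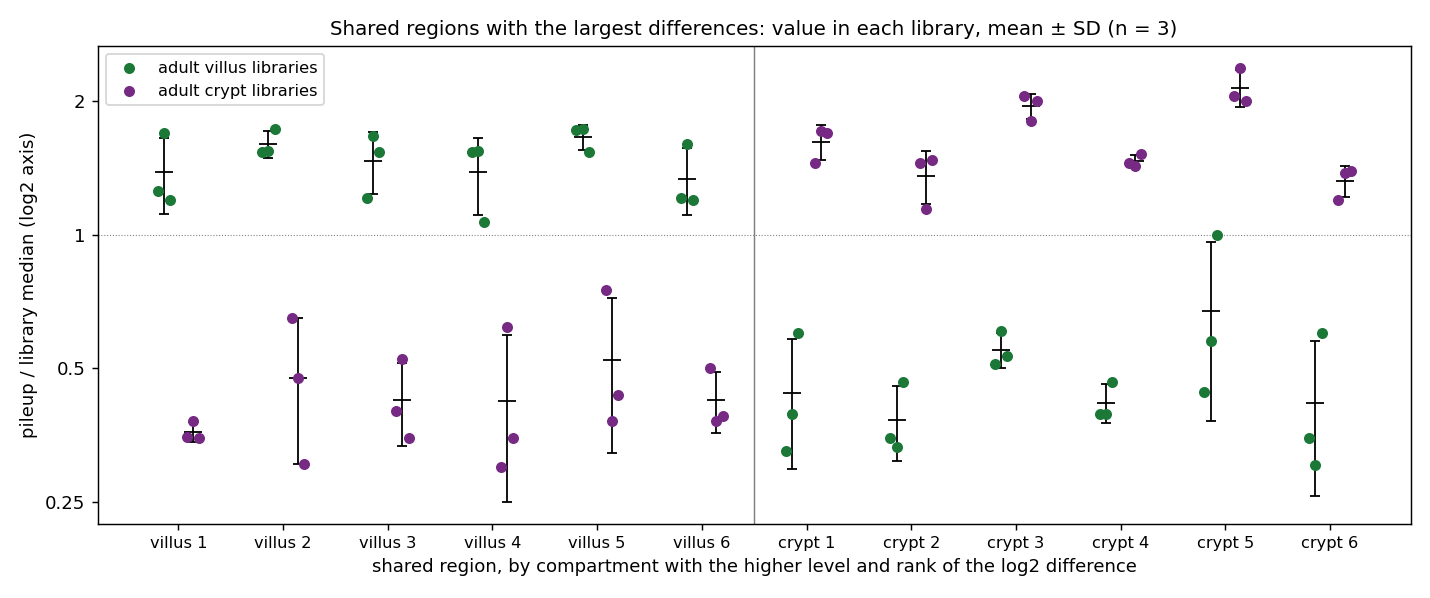
Level relative to the library median (log2 axis) in each adult villus (green) and adult crypt (purple) library for the 6 shared regions with the largest difference in favour of villus (left) and of crypt (right), in the order of their log2 difference, with the mean ± SD of 3 libraries. The groups do not overlap in any of the 12 regions, because lack of overlap was a condition for naming them.

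Geriatric villus and crypt libraries had no part in the choice of villus-only and crypt-only regions. They had a peak in these regions more often where the compartment matched. A peak was present in 62.1% ± 8.76 of villus-only regions in geriatric villus and in 7.22% ± 2.39 in geriatric crypt (SD, n = 3 each). For crypt-only regions the shares were 6.93% ± 2.71 in geriatric villus and 79.8% ± 13.1 in geriatric crypt. The groups did not overlap, and each difference, of 54.9 and −72.9 percentage points (villus minus crypt), had the smallest p that a two-sided exact permutation test of 3 against 3 can give, p = 0.1. With equal-length lists the differences were 67.5 and −71.0 points, and without single libraries they ranged from 39.8 (without adult villus library 3) to 58.0 and from −78.0 to −58.3 (without adult crypt library 2). The full pattern, a peak in all 3 geriatric libraries of the same compartment and in none of the other, was found in 874 villus-only regions (28.3%) and 1538 crypt-only regions (46.9%). The opposite pattern was found in 3 and 0. No geriatric villus library had a peak in 395 villus-only regions (12.8%), and no geriatric crypt library in 98 crypt-only regions (2.99%). For regions with a peak in all 6 adult libraries, the share with a peak was 94.3% ± 3.18 in geriatric villus and 94.3% ± 2.45 in geriatric crypt (SD, n = 3 each).

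Shared regions were compared between the ages where all 12 adult and geriatric libraries of the duodenum had a peak. The geriatric libraries thus took part in choosing these 13376 regions, which leave out, for example, chr18:38220829-38221338 with no peak in geriatric crypt. Among them, 760 (5.68%) favoured villus and 1299 (9.71%) favoured crypt in adult mice with medians centred. In geriatric mice 874 were higher in villus (6.53%) and 810 higher in crypt (6.06%). Higher in villus at both ages were 449 regions, 59.1% of the adult calls and 51.4% of the geriatric calls. Higher in crypt at both ages were 501, 38.6% of the adult and 61.9% of the geriatric calls. No region was called in opposite directions at the 2 ages. The geriatric difference favoured villus in 97.6% of adult villus calls, against 47.1% of all 13376 regions, and favoured crypt in 96.2% of adult crypt calls, against 52.9% of all regions. These signs include regions that did not pass the test in geriatric mice. The median difference of the adult villus calls was 0.82 (log2) in adult and 0.79 in geriatric mice. For adult crypt calls it was −0.72 in adult and −0.52 in geriatric mice. These regions were picked on their adult difference, so no age comparison is read from the medians. A test of the age difference itself, the interaction of age and compartment in limma, called no region, and 643 (4.81%) had an unadjusted p under 0.05. The count shared with geriatric crypt was 295 to 320 without geriatric villus library 1 or 2 or geriatric crypt library 2 or 3, and the count shared with geriatric villus was 293 without geriatric villus library 2. On pileup per M kept reads both were 0.

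**Figure D4:**
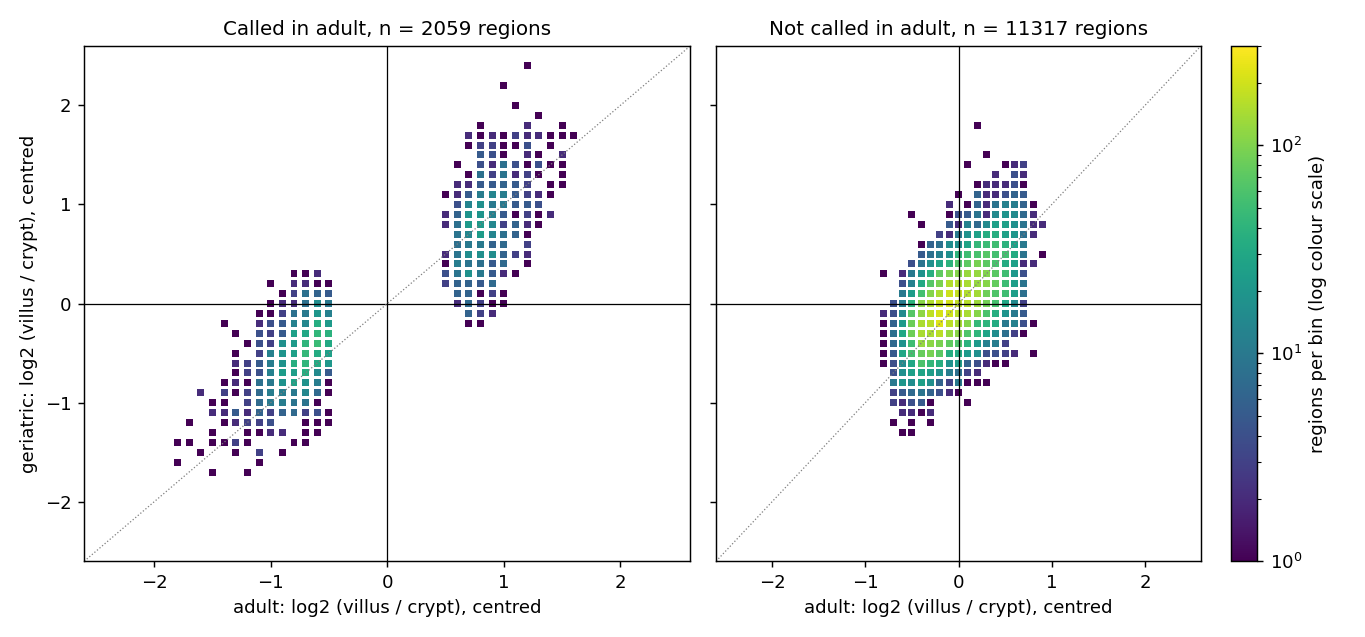
Difference between villus and crypt (log2, library medians centred) in adult (x axis) and geriatric (y axis) mice for 13376 regions with a peak in all 12 libraries, in bins of 0.1 by 0.1 coloured by the number of regions on a log scale. The 2059 regions called in adult mice (left) lie almost all in the quadrants of equal sign, with 97.6% of villus calls and 96.2% of crypt calls on the same side of 0 at both ages.

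In the colon, regions that were more open in crypt than in villus carried peaks far more often than regions that were more open in villus. Juvenile colon libraries had a peak in 82.2% ± 1.70 of the shared crypt-higher regions and in 33.0% ± 5.10 of the shared villus-higher regions (SD, n = 3). Adult colon libraries had one in 86.2% ± 3.80 and 60.1% ± 9.0 (SD, n = 3). The 2 geriatric proximal colon libraries had one in 67.7% and 83.02% of crypt-higher regions and in 6.28% and 11.7% of villus-higher regions. Shared regions that were not called lay between both kinds, at 65.3%, 76.7% and 49.0% in the same 3 groups. Within quartiles of mean level that order did not always hold, as given in the next paragraph. The crypt-higher share exceeded the villus-higher share in 8 of 8 colon libraries, by 44.8 ± 17.6 percentage points (SD, n = 8). That SD also holds differences between the colon groups. As villus-higher minus crypt-higher share, their means were −49.2 points in juvenile, −26.1 in adult and −66.4 in geriatric proximal colon. Per the labels' protocols, juvenile colon was pooled from 6 pups and the other colon samples from 2 mice. Colon libraries also had fewer peaks than duodenum libraries, 11355 to 32855 against 35105 to 60519. In whole juvenile duodenum, which holds both compartments, the shares were 96.7% ± 0.242 and 87.6% ± 2.11 (SD, n = 3).

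Crypt-higher regions were more often in the top quartile of mean level, so the shares were also taken within quartiles of the mean level over the 6 adult libraries. In the second quartile from the bottom, which held 503 villus-higher and 224 crypt-higher regions, juvenile colon libraries had a peak in 30.9% ± 6.38 and 54.6% ± 3.41. Geriatric proximal colon libraries had one in 5.86% and 50.4% on average, and the uncalled regions of that quartile stood at 38.3%. In juvenile colon the uncalled regions of that quartile stood at 59.0% ± 3.45 (SD, n = 3), and their range overlapped that of the regions higher in crypt. Adult colon libraries had one in 59.2% ± 9.13 and 62.1% ± 9.61, a difference within the spread of the libraries, with uncalled regions at 74.4%. In the third quartile the shares were 43.4% ± 5.03 and 82.9% ± 2.02 in juvenile colon and 14.4% and 67.2% in geriatric proximal colon. Adult colon had 75.1% ± 7.26 and 88.9% ± 4.54. Uncalled regions of the third quartile stood at 74.6% in juvenile, 55.9% in geriatric proximal and 86.4% in adult colon. Their range in adult colon overlapped that of crypt-higher regions. In the bottom quartile the shares were 18.9% ± 4.05 and 35.8% ± 4.79 in juvenile colon and 3.80% and 34.5% in geriatric proximal colon. Adult colon had 40.8% ± 11.2 and 48.5% ± 10.3 there, with overlapping ranges. Uncalled regions of the bottom quartile stood at 39.0% in juvenile, 22.2% in geriatric proximal and 52.9% in adult colon. Villus-higher regions had the smaller mean share in each of the 4 quartiles and in each of the 3 colon groups. Against uncalled regions, crypt-higher regions had the smaller mean share in the bottom and second quartiles of juvenile and adult colon. They had the larger one in the third and top quartiles, and in every quartile of geriatric proximal colon.

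Regions with a peak in a single adult compartment had colon peaks less often than regions with a peak in all 6 adult libraries. The latter had one in 64.6% ± 2.68 in juvenile colon, 76.4% ± 6.39 in adult colon and 48.7% on average in geriatric proximal colon. The share over all merged regions was not taken. Of villus-only regions, 4.04% ± 1.36 had a peak in juvenile colon, 17.5% ± 6.31 in adult colon and 0.907% on average in geriatric proximal colon. Of crypt-only regions, 9.34% ± 1.69, 14.3% ± 5.43 and 16.9% had one. The difference of crypt-only minus villus-only was 4.76 ± 8.45 percentage points (SD) over the 8 colon libraries and above 0 in 5 of them. That SD also holds differences between the colon groups, whose means differed in sign. Whole juvenile duodenum had a peak in 37.7% ± 4.74 of villus-only and in 34.0% ± 1.81 of crypt-only regions. Taking ages and tissues together, 577 villus-only and 804 crypt-only regions had the full pattern in the geriatric duodenum and no peak in any colon library. They were 66.0% of the villus-only and 52.3% of the crypt-only regions with the full pattern. Over the whole classes, 2215 of 3087 villus-only and 1929 of 3281 crypt-only regions had no peak in any colon library. Of the 577 and 804 regions, 255 and 448 also had no peak in juvenile duodenum.

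**Figure D5:**
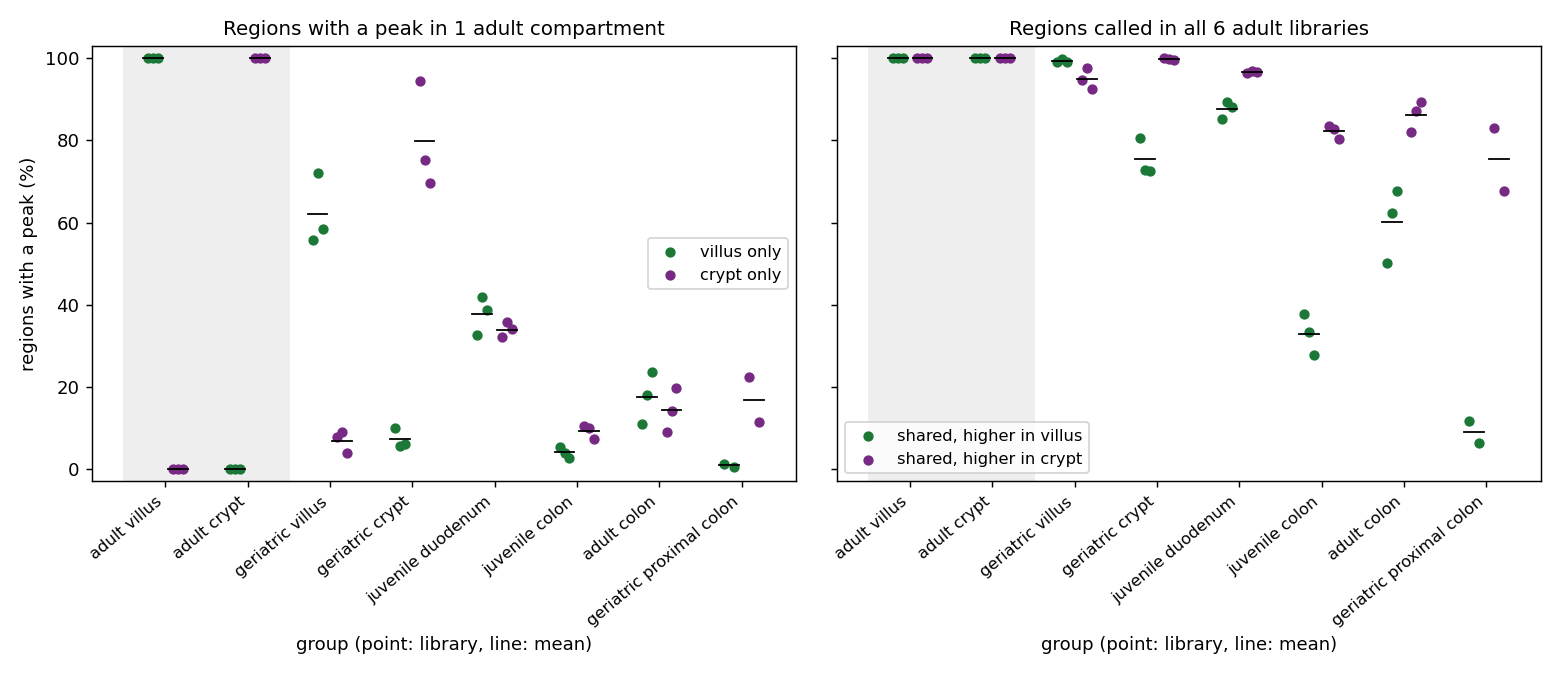
Share of regions with a peak (%) in each of the 23 libraries (points, with the group mean as a line), for villus-only and crypt-only regions (left) and for shared regions higher in villus or in crypt (right). The shaded adult libraries chose the regions, so their values are fixed at 0 or 100%. In the left panel the geriatric groups are separated by compartment, and in the right panel the colon libraries have the lower share in villus-higher regions, down to 6.28%.

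The position of the summit moved little between compartments. In shared regions the summits of a villus and a crypt library were a median of 36.9 bp apart, averaged over 9 pairs of libraries, against 34.3 bp between villus libraries and 32.0 bp between crypt libraries. Summits were closest in the compartment where a region was more open. In regions higher in crypt they were 23.3 bp apart between crypt libraries and 39.0 bp between villus libraries, and in regions higher in villus 36.0 bp between villus and 46.3 bp between crypt libraries. Higher regions have more reads behind each summit, and the part of read depth in these distances was not tested.

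Several stretches of chromosome held 6 or 7 regions of one direction, listed here as windows of at most 100 kb chosen after their values were seen. They were picked from the densest windows over the genome. Merged regions of any kind in them numbered 12, 17, 14, 17 and 14, in the order given below. On chromosome 4, from 55674663 to 55746511, 4 villus-only and 3 shared villus-higher regions lay together with 1 crypt-only region. On chromosome 6, from 17491690 to 17564454, there were 4 villus-only and 3 villus-higher regions and none of the crypt kinds. On chromosome 1, from 58659575 to 58749644, there were 6 villus-only regions and none of the crypt kinds. In favour of crypt, a window on chromosome 10 from 80039963 to 80139583 held 6 shared regions with a peak in every library, all 6 higher in crypt, beside 1 villus-only region. A window on chromosome 16 from 97839016 to 97901172 held 6 crypt-only regions and 1 villus-higher region. Also among the densest were villus windows on chromosome 15 from 85515884 to 85605796 and on chromosome 2 from 32357091 to 32403329. They held 7 and 6 regions of the villus kinds, each beside 1 crypt-higher region, among 21 and 13 merged regions. Crypt windows among the densest that are not named here held no region of the villus kinds. Over whole chromosomes, villus-only regions were 48.5% of all compartment-only regions, with the extremes among autosomes at 64.3% on chromosome 19 (108 villus-only and 60 crypt-only) and 38.3% on chromosome 16 (93 and 150).

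The authors' deposited lists for this comparison hold 3118 regions as enriched in villus and 3520 as enriched in crypt, without fold changes or p-values. They were made from the same libraries, so they are not independent evidence. In the authors' deposited villus list, 1180 regions (37.8%) overlapped a villus-only region, and 273 overlapped a shared region called higher in villus here. In the authors' deposited crypt list, 1749 (49.7%) overlapped a crypt-only region, and 201 a shared region called higher in crypt. Neither list overlapped a compartment-only or called region of the opposite direction. After taking away overlaps with compartment-only regions and with regions called in all 6 libraries, 1660 villus-list and 1559 crypt-list regions were left. Seen from the other side, the authors' deposited lists held 38.3% of villus-only and 53.4% of crypt-only regions, but 21.7% of the shared villus-higher and 12.0% of the shared crypt-higher regions. Regions of the authors' deposited villus list had a peak in 92.7% ± 9.43 of cases in villus and 24.8% ± 12.1 in crypt libraries, and those of the crypt list in 11.8% ± 4.61 and 88.4% ± 7.62 (SD, n = 3 each). These shares are a description, since the lists were chosen on the same libraries.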

How the data were processed

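The authors made ATAC-seq libraries and called peaks on each library alone with MACS2 2.1.0.20150731 without a control, per the file headers, keeping 1 read per position, with a q cutoff of 0.05 and a local background over 10 kb. The deposited peak tables hold, per the file headers, a pileup signal that is not scaled to depth, −log10 p-values, −log10 q-values, and fold enrichment, the ratio of pileup to local background, all as the authors' caller gave them. The submitters' processing notes name the mm9 build, cutadapt 1.9.1, Bowtie2, SAMtools 0.1.19, bedtools 2.17.0, Picard 2.18.27, deepTools and DiffBind. Alignment settings, any transposase shift beyond the headers, and how the deposited region lists were modelled and thresholded, are not given in these sources.

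Peaks were merged with an overlap of at least 1 bp, and the highest pileup of a library in a region was divided by its kept reads in M, from the header. Read extension, 68 to 145 bp in the adult libraries, enters the pileup, and its part in the level of a whole library was not tested. Median pileup in shared regions was 15 to 43 reads, which limits the precision of each value. Log2 values were fitted with limma 3.58.1 (R 4.3.3, empirical Bayes with trend, no pseudocount, Benjamini-Hochberg threshold 0.05), over regions with a peak in all 6 libraries. Because the level of whole libraries differed, the scaling with centred library medians was taken to lead the text after the data were seen. Shares and peak numbers were compared with exact permutation tests (scipy 1.17.1). Figures were drawn with matplotlib 3.10.9.

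Regions were named by a rule. Per direction these were the 6 shared regions with the largest log2 difference among those called with groups that did not overlap, and the 6 compartment-only regions with the highest mean pileup per M among those exclusive on full and equal-length lists. Members and lists were chosen with earlier results of these data known. Gene lists and marker genes were not used here, because no annotation of mm9 was at hand, and the other 26 deposited region lists were not used either. Alternatives were other scalings, fold enrichment, a low-level filter, the replicate block, stricter peaks or overlap, equal-length lists and leaving out each library. Those for the centred counts, the colon shares, the named shared regions and the distance to shared regions were added after the data were seen.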

Additional observations from a re-analysis of the deposited data

Results flagged for a closer look

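Villus-only and crypt-only regions were set side by side in the groups that did not choose them, as the villus-only minus the crypt-only share of regions with a peak. The difference was above 0 in all 3 juvenile duodenum libraries (3.76 percentage points on average) and all 3 adult colon libraries (3.24 points), and below 0 in all 3 juvenile colon libraries (−5.30 points) and both geriatric proximal colon libraries (−15.9 points). Every library of one group thus moved one way and every library of the other the opposite way in 4 pairs of groups. Juvenile duodenum exceeded juvenile colon by 9.06 points and geriatric proximal colon by 19.7 points. Adult colon exceeded geriatric proximal colon by 19.2 points, and juvenile colon minus adult colon was −8.54 points. These differences between groups were not tested. Geriatric proximal colon had the fewest peaks of all groups, 17026 and 11355, and the part of list length in these values was not tested.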

How the results depend on the processing

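Counts of shared regions moved with the scaling. On pileup per M kept reads they were 0 higher in villus and 0 higher in crypt, against 1257 and 1673 with library medians centred, 1248 and 1030 after quantile normalization, 36 and 87 on fold enrichment, and 26 and 186 when pileup per M was also divided by the extension length. The low-level filter and limma without trend left 0 in both directions per M kept reads, where leaving out a library gave 0 to 1522 in villus and 0 to 34 in crypt. Centred counts were 528 to 1249 in villus and 844 to 2191 in crypt without single libraries. Regions called at both ages numbered 0 and 0 per M (0 without any geriatric library) and 449 and 501 centred, or 293 to 405 and 295 to 642 without single geriatric libraries. The cause of these shifts was not tested. Region by region, replicate numbers did not pair the libraries: deviations of same-numbered villus and crypt libraries correlated at 0.124, −0.0544 and 0.0400 over regions, and not every library correlated best with its own number. Library 3 had the lowest median pileup per M in each adult and geriatric villus and crypt group, and whether same-numbered libraries share a source was not tested. With the replicate number as a block, 0 and 0 regions were called per M and 1332 and 1763 centred.

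Villus-only regions numbered 2006 at 50% cover and 3278 to 7135 without single libraries, and crypt-only regions 1984 at a −log10 q of at least 5 and 3451 to 6418 without single libraries. Leaving out regions within 1 kb of a shared region, chosen after seeing the data, gave 2825 and 3181. The difference in peak number, −393, turned to 3466 at the stricter q and ranged from −6912 to 4390 without single libraries. Geriatric shares, shares of the authors' deposited lists (61.2 to 73.3 and −80.9 to −73.6 points without single libraries) and the colon difference in shared regions (43.2 to 47.4 points without single libraries, 31.1 after quantile normalization and 48.0 on fold enrichment) kept their direction under every alternative run. Depth limits single regions, since a median pileup of 15 reads lies behind shared regions in villus library 3.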
